A study of Mus musculus with 6 samples.

Results

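The collagen genes of sorted tumour fibroblasts were examined: every gene of the expression table whose symbol has the form Col, number, a, number. This rule gave 37 of the 12235 genes in the table. They fell into 11 fibrillar chains, 6 fibril-associated collagens (FACIT), 7 basement membrane chains, 2 network-forming chains, 5 beaded-filament chains, 1 anchoring-fibril chain, 3 transmembrane chains and 2 others, Col26a1 and Col28a1. Col15a1 and Col18a1 were counted with the basement membrane class. The list used to assign classes holds 44 collagen symbols, of which 7 are not in the expression table. RNA came from podoplanin-positive cancer-associated fibroblasts (pCAFs) of 4T1 tumours, a line from a BALB/c breast carcinoma. Female BALB/c mice aged 8 weeks had received 100000 of these cells in the mammary fat pad, and tumours were digested with collagenase A and DNase before the sort. Both groups were negative for Ter119, CD45 and EpCAM and positive for PDPN, and they differed in surface Ly6C, with 3 Ly6C+ and 3 Ly6C- libraries. The labels call the injected line GFP-marked in one field and luciferase-marked in another. They do not say whether the libraries came from separate animals, so the p-values measure the spread between these libraries, which may be technical.

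Collagens are trimers of chains that wind into a triple helix along repeats with regularly spaced glycine. Fibrillar collagens form the tensile fibres of connective tissue, FACIT collagens sit on the surface of those fibres, type IV collagen makes the sheet of basement membranes, type VI collagen forms beaded microfilaments near cells, and type VII collagen forms the fibrils that tie an epithelial basement membrane to the stroma beneath it. In carcinomas, fibroblasts are the main source of fibrillar collagen.

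Each library was a 3′ end mRNA library with 1176909 to 2818269 reads on the genes of the table, the Ly6C- libraries being the shallower (at most 1721480 reads, against at least 2150531). Values are normalised counts. A read in such a library stands for a transcript end, so values were not divided by transcript length, and shares below are shares of reads. Ly6c1 followed the gate (2316 to 3849 in Ly6C+, 65.6 to 88.6 in Ly6C- libraries), Pdpn was present in both groups (181 to 223 and 66.9 to 143), Epcam reached at most 2.95 and Ptprc, which encodes CD45, at most 4.88. Of the 6 fibroblast markers, Pdgfra, Dcn, Lum and Pdpn were higher in Ly6C+ pCAFs, while Fap and Col1a1 did not pass the test. Beside this and the marker lists below stand all tested genes, of which 9.41% were higher and 7.66% lower in Ly6C+ pCAFs. Leukocyte markers summed to 194 to 654 in Ly6C+ and 53.6 to 95.5 in Ly6C- libraries. Of the 5 tested, Lyz2 (12.5-fold) and Cd3e (7.65-fold) were higher in Ly6C+ pCAFs, while Cd68, Csf1r and S100a8 did not pass. Lyz2 was uneven, at 264, 98.5 and 27.0 in Ly6C+ libraries. Its call ended without Ly6C+ replicate 1 or Ly6C- replicate 2 (limma adjusted p = 0.0746 and 0.0570). Adipocyte markers summed to 124 to 186 in Ly6C+ and 11.9 to 24.6 in Ly6C- libraries. Of the 3 adipocyte markers tested, Lpl (12.5-fold) and Fabp4 (8.31-fold) were higher in Ly6C+ pCAFs and Pparg did not pass, while the untested Adipoq was at 0 to 0.773. In the endothelial list Tek was higher in Ly6C+ pCAFs (13.5 to 25.6 against 0 to 2.62) and Kdr higher in Ly6C- pCAFs. Chondrocyte markers summed to 22.6 to 52.6 in Ly6C+ and 9.36 to 24.9 in Ly6C- libraries. What these cells contributed to the values below was not tested. In sorted bulk RNA, fewer cells of a type and less RNA per cell cannot be told apart.

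The collagens summed to shares of the RNA that overlapped between the populations, while single chains differed in both directions. The 37 genes made up 4.2, 4.55 and 4.73% of all reads in Ly6C+ and 3.94, 4.22 and 4.96% in Ly6C- libraries. These ranges overlapped (4.49 ± 0.272% against 4.38 ± 0.524%, SD, n = 3 each; exact two-sided permutation p = 0.80). Of the 28 collagens with a mean of at least 5, which were tested by limma together with all 9646 such genes, 5 were higher and 6 lower in Ly6C+ pCAFs at an adjusted p under 0.05, and 17 did not pass. That is 39.3% of the tested collagens, where 17.1% of all tested genes passed (9.41% higher and 7.66% lower). Many collagens are abundant, and among all genes with a mean of at least 100 the share was 25.9%, against 8 of 18 collagens (44.4%). The 2 ranges were apart for 13 collagens, 6 with all Ly6C+ values above and 7 with all below, or 46.4%, against 33.1% of all tested genes (17.1% above and 16.1% below). The median log2 fold change (Ly6C+ minus Ly6C-) was -0.11 over the collagens and -0.00 over all tested genes, and the median size of the change without its sign was 0.77 against 0.36.

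**Figure D1:**
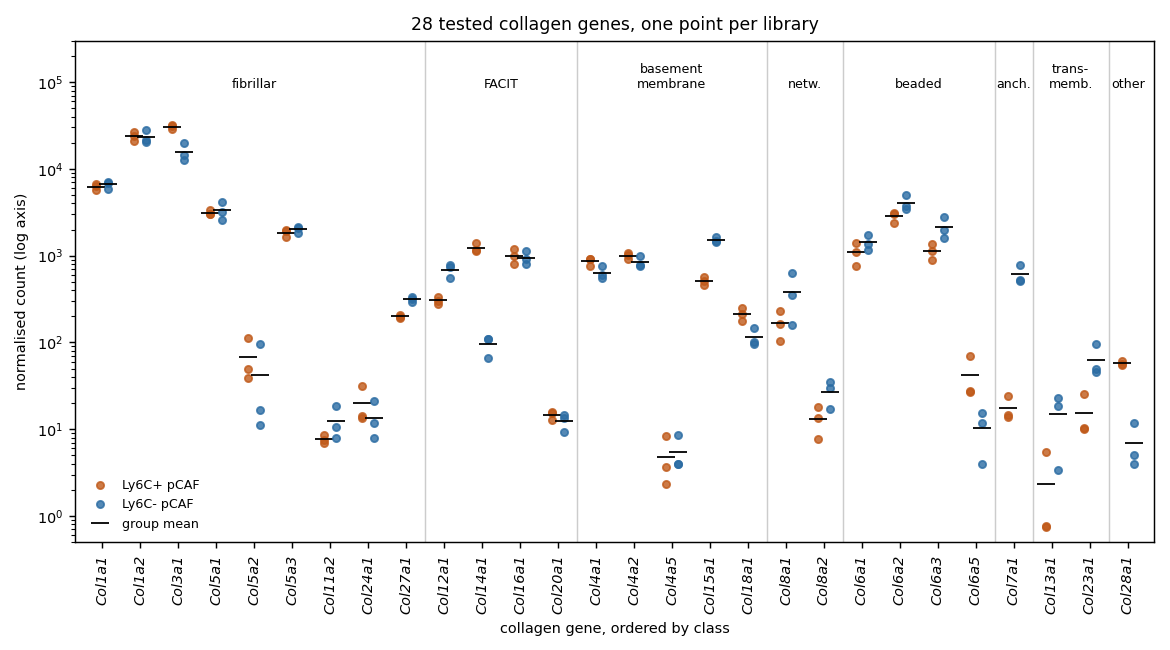
Normalised counts (log axis) of the 28 tested collagen genes, ordered by class, with 1 point for each of 3 Ly6C+ and 3 Ly6C- pCAF libraries and a bar at each group mean. Col14a1, Col7a1 and Col28a1 show the widest gaps between the groups, while Col1a1 and Col1a2 overlap.

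After scaling to library totals, the median difference over all genes became -0.19 on the log2 scale and that over the collagens -0.31, and 37.4% of all called genes were then higher against 55.1% here. The same scaling called 14 collagens, 5 higher and 9 lower, with Col13a1, Col6a2 and Col8a2 as the additions, all lower. On recovered reads edgeR with TMM scaling and DESeq2 each called 12 of the 28 collagens, Col13a1 being the addition, where they called 17.8% and 16.1% of all genes; edgeR with RLE scaling called the 11. None of the 11 called collagens changed sign in any of 23 alternative settings.

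Fibrillar collagens made up the bulk of the collagen reads. Of their 9 tested chains, 1 was higher, 1 lower and 7 did not pass, or 22.2% called against 17.1% of all genes. The chain that was higher was Col3a1, the single chain of type III collagen, a fibre of extensible tissues. Its values were 28781, 32124 and 30851 in Ly6C+ libraries against 12818, 14449 and 19797 in Ly6C- libraries. Every Ly6C+ value lay above every Ly6C- value, a 1.95-fold difference (log2 difference 0.99 with an SE of 0.21, limma adjusted p = 0.00852). Type I collagen, the main fibre protein of stroma, showed no such gap. Col1a2 stood at 20837, 23755 and 26409 in Ly6C+ libraries against 20568, 21464 and 28394 in Ly6C- libraries, and the groups overlapped. Its difference was 0.02 on the log2 scale with a 95% interval of -0.44 to 0.48. Col1a1 stood at 6719.6, 6277 and 5716 against 6949, 7076 and 5904, with an interval of -0.47 to 0.29. Its call depended on scaling, since it passed as lower in Ly6C+ pCAFs after quantile normalization (log2 fold change -0.61; limma adjusted p = 0.0191). The read ratio of Col3a1 to Col1a2, picked after the values were seen, was 1.38, 1.35 and 1.17 in Ly6C+ libraries against 0.623, 0.673 and 0.697 in Ly6C- libraries.

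The promoter of Col3a1 is shown because this was the fibrillar chain called higher in Ly6C+ pCAFs. The gene lies on chromosome 1, 45311538 to 45349706, plus strand (mm10, GENCODE M21, protein coding). The 250 bases before its start site, chr1:45311288-45311537 on the plus strand, are from the RefSeq table on GRCm38.p6, with CG dinucleotides, the sites of DNA methylation, set in capitals.
Col3a1: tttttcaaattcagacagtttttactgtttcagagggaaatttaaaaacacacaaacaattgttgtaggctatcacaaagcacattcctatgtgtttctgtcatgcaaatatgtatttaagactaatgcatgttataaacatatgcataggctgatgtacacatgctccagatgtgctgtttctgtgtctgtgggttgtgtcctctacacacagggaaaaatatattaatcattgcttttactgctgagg
It holds 0 CG dinucleotides, as 8.26% of 27025 promoters do, and the median promoter holds 6. A TATAAA match begins at position -117.

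Type V collagen, which is built into type I fibrils and limits their diameter, did not pass for any chain. Col5a1 stood at 3323, 3029 and 3046 in Ly6C+ libraries against 2591, 3222 and 4172 in Ly6C- libraries, and Col5a3 at 1977, 1630.4 and 1936 against 1829, 2109 and 2119.9. Both pairs of ranges overlapped (95% intervals of the log2 difference -0.49 to 0.37 and -0.48 to 0.22). Col5a2 was uneven within each group, at 49.4, 114 and 38.6 in Ly6C+ libraries against 16.7, 11.1 and 97.0 in Ly6C- libraries. Its log2 fold change of 1.15 (95% interval -0.31 to 2.61) did not pass, but without Ly6C- replicate 3, the highest of that group, the fold rose from 1.61 to 4.83 and passed (limma adjusted p = 0.00472); without Ly6C+ replicate 2 the fold was 1.06. Col27a1, a fibrillar collagen best known from cartilage, was the chain that fell. It stood at 198, 192 and 209 in Ly6C+ libraries against 289, 319 and 330.4 in Ly6C- libraries, with no overlap and a 1.57-fold difference (log2 difference -0.64 with an SE of 0.15, limma adjusted p = 0.0141). Its call ended without Ly6C+ replicate 2 or Ly6C- replicate 2 (limma adjusted p = 0.0625 and 0.0688). The low-level chains Col11a2 (6.95 to 18.7 over all libraries) and Col24a1 (7.87 to 31.7) did not pass.

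Among FACIT collagens, Col14a1 was higher and Col12a1 lower in Ly6C+ pCAFs, and both coat type I fibrils, Col12a1 being typical of tissues under tension. Col14a1 stood at 1138, 1163 and 1391 in Ly6C+ libraries against 66.9, 109 and 110.1 in Ly6C- libraries, 12.9-fold higher (log2 difference 3.71 with an SE of 0.21, limma adjusted p = 1.16e-06). Col12a1 stood at 303, 338 and 279 in Ly6C+ libraries against 559, 777 and 738 in Ly6C- libraries, 2.26-fold higher in the latter (log2 difference -1.16 with an SE of 0.18, limma adjusted p = 0.000851). Neither gene's groups overlapped, and both passed in 23 of 23 alternative settings. Dividing the value of Col14a1 by that of Col12a1, a ratio formed after the values were seen, gave 3.75, 3.45 and 4.99 in Ly6C+ libraries against 0.120, 0.140 and 0.149 in Ly6C- libraries. Col14a1 lies on chromosome 15, 55307750 to 55520803, plus strand, and Col12a1 on chromosome 9, 79598991 to 79718831, minus strand. The other 2 tested FACIT genes did not pass. Col16a1, at 807, 1003 and 1196 against 808, 918 and 1122, had a 95% interval of -0.35 to 0.50, and Col20a1 stood at 9.18 to 15.8 over all libraries.

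Col7a1, the chain of type VII collagen and of anchoring fibrils, showed the widest difference of the family. Its values were 14.6, 24.1 and 13.9 in Ly6C+ libraries against 778, 510.4 and 531 in Ly6C- libraries. The lowest Ly6C- value stood far above the highest Ly6C+ value, and the means differed 34.6-fold (log2 difference -5.05 with an SE of 0.25, limma adjusted p = 5.06e-07), on 74 reads in Ly6C+ and 1796 in Ly6C- libraries. Keratinocytes as well as fibroblasts make type VII collagen, so epithelial markers are given beside it. The 6 epithelial markers summed to 7.93, 34.6 and 39.4 in Ly6C+ libraries against 299, 189 and 65.6 in Ly6C- libraries, and of the 3 tested only Krt14 passed, at 0.610 to 0.773 against 25.6 to 40.8. Krt5 was at 0 in all 3 Ly6C+ libraries and at 3.94 to 15.3 in Ly6C- libraries, whereas Epcam and Cdh1 stayed at or below 2.95 and 1.97. Col17a1, the hemidesmosome collagen of basal epithelium, reached 9.18 in Ly6C- replicate 3 and at most 1.5 elsewhere. The part of epithelial RNA in the Col7a1 difference was not tested.

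The promoter of Col7a1 is shown as that of the gene with the largest change. The gene lies on chromosome 9, 108953586 to 108984875, plus strand (protein coding), and the bases shown are chr9:108953336-108953585, plus strand, with CG in capitals.
Col7a1: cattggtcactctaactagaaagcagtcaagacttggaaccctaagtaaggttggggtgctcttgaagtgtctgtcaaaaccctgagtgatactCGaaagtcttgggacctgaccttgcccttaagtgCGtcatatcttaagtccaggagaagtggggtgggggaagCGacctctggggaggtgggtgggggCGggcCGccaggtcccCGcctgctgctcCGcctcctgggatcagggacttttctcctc
It holds 7 CG dinucleotides and a GC content of 56.4%, with a match to CCAAT (read on the other strand) at position -249 and one to GGGCGG at -61.

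Basement membrane collagens split between type IV and the multiplexins Col15a1 and Col18a1, which carry heparan or chondroitin sulphate chains. Col15a1, a collagen of the outer face of basement membranes, stood at 514, 463 and 564 in Ly6C+ libraries against 1437, 1459.8 and 1639 in Ly6C- libraries, 2.94-fold higher in the latter without overlap (log2 difference -1.56 with an SE of 0.16, limma adjusted p = 4.79e-05). Col18a1, whose end fragment is endostatin, went the other way, at 213, 175 and 249.6 against 146, 95.3 and 101, 1.87-fold higher in Ly6C+ pCAFs (log2 difference 0.91 with an SE of 0.21, limma adjusted p = 0.0131). The call of Col18a1 ended without Ly6C+ replicates 1 or 3 or Ly6C- replicate 2 (limma adjusted p = 0.0527, 0.0538 and 0.0718). Its 3′ end overlaps Slc19a1 on the other strand, and since the handling of strands is not given in the sources used here, reads of the pair may be mixed. Slc19a1 itself stood at means of 28.8 and 29.7. Type IV collagen, the sheet protein, did not pass. Col4a1 stood at 761, 926 and 913 in Ly6C+ libraries against 750.0, 597 and 551 in Ly6C- libraries, without overlap (log2 fold change 0.46, 95% interval 0.08 to 0.84; limma adjusted p = 0.0993), and it passed without Ly6C- replicate 1 (limma adjusted p = 0.0492). The antisense gene Gm15418, which has no values here, covers the 3′ end of Col4a1, so its reads carry the same strand limit. Col4a2 stood at 906, 1082 and 1015 against 776, 768 and 978 (95% interval -0.11 to 0.62), and Col4a5 at 2.32 to 8.51 over all libraries. Pericytes, smooth muscle cells and endothelial cells also make basement membrane. Of 7 tested markers of pericytes and smooth muscle, 5 were lower and 1 higher in Ly6C+ pCAFs. Over all tested genes, 7.66% were lower and 9.41% higher. The 8 markers summed to 190.3, 209.7 and 246 against 1109, 842 and 604. Those higher in Ly6C- pCAFs, as Col15a1 was, were Cspg4 (13.7-fold), Des (16.8-fold, or 9.26-fold without Ly6C- replicate 1), Mcam (10.6-fold, or 20.1-fold without Ly6C+ replicate 2), Notch3 (2.81-fold) and Myh11 (0 to 0.610 against 20.7 to 28.9). Kcnj8 was 3.92-fold higher in Ly6C+ pCAFs, and the untested Rgs5 was at 0 to 5.24. Endothelial markers summed to 37.2, 19.5 and 26.3 against 100.4, 102.9 and 15.7. Kdr was 9.31-fold higher in Ly6C- pCAFs, a call that ended in 5 of the 6 fits with a library left out (limma adjusted p = 0.0528 to 0.112) and held without Ly6C- replicate 3. Tek, the other endothelial marker tested, went the opposite way. It stood at 13.5 to 25.6 in Ly6C+ against 0 to 2.62 in Ly6C- libraries (limma adjusted p = 0.00173). Cldn5 was at 0 in Ly6C+ and at 1.31 to 7.87 in Ly6C- libraries. The part of these cells in the basement membrane values was not tested.

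Beaded-filament collagen VI is an assembly of Col6a1, Col6a2 and 1 longer chain, usually Col6a3. Col6a3 stood at 893, 1118 and 1349 in Ly6C+ libraries against 1593, 1976 and 2766 in Ly6C- libraries, 1.89-fold higher in the latter without overlap (log2 difference -0.90 with an SE of 0.23, limma adjusted p = 0.0186). Its call ended without Ly6C+ replicates 1 or 2 or Ly6C- replicate 2 (limma adjusted p = 0.0926, 0.0549 and 0.0587). Col6a2 stood at 3027, 3109.7 and 2398 against 3490.0, 3731 and 4944, also without overlap, but did not pass (log2 difference -0.50, limma adjusted p = 0.104); it passed as lower in Ly6C+ pCAFs after quantile normalization and after scaling to library totals. Col6a1 overlapped, at 1396, 1112 and 758 against 1169, 1738 and 1358. Col6a5, an alternative to Col6a3 of low level, was higher in Ly6C+ pCAFs, at 70.1, 27.1 and 27.8 against 11.8, 15.3 and 3.93 (log2 difference 1.93 with an SE of 0.49, limma adjusted p = 0.0186). Its 4.03-fold difference fell to 2.65-fold without Ly6C+ replicate 1, and the call then ended (limma adjusted p = 0.105). Col6a3 and its rarer alternative thus differed in opposite directions.

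The network-forming type VIII chains, known from vessel walls and the cornea, did not pass, although both had lower means in Ly6C+ pCAFs. Col8a1 stood at 104, 232 and 164 against 158, 350.5 and 633 (log2 fold change -1.05, 95% interval -2.0 to -0.10; limma adjusted p = 0.134), and it passed without Ly6C- replicate 1 (limma adjusted p = 0.00467). Col8a2 stood at 13.4, 18.0 and 7.73 against 29.5, 34.9 and 17.0 (limma adjusted p = 0.0943), and it passed without Ly6C- replicate 3 (limma adjusted p = 0.0307). The replicate numbers 1 to 3 of each group have no stated link to each other.

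Of the membrane-spanning collagens, Col23a1 was lower in Ly6C+ pCAFs. Its values were 10.4, 25.6 and 10.04 in Ly6C+ libraries against 45.3, 49.3 and 95.7 in Ly6C- libraries, without overlap and 4.14-fold apart (log2 difference -2.03 with an SE of 0.39, limma adjusted p = 0.00428), or 6.22-fold without Ly6C+ replicate 2. Col13a1, found at cell-matrix adhesions, stood at 5.49, 0.752 and 0.773 against 22.6, 3.40 and 18.4 without passing (limma adjusted p = 0.0650). This gene rested on 11 and 41 reads, and it passed without Ly6C+ replicate 1 or Ly6C- replicate 2 (limma adjusted p = 0.0436 and 0.0173), as in edgeR with TMM scaling and DESeq2 on all 6. The fold of Col13a1 moved from 6.33 to 19.4 without Ly6C+ replicate 1.

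Col28a1, a collagen with von Willebrand factor A domains that is known from the sheath of peripheral nerve, was higher in Ly6C+ pCAFs. It stood at 54.9, 57.1 and 61.0 in Ly6C+ libraries against 3.94, 5.10 and 11.8 in Ly6C- libraries, 8.30-fold higher (log2 difference 3.01 with an SE of 0.36, limma adjusted p = 0.000158), or 12.8-fold without Ly6C- replicate 3. The 3 Ly6C+ values lay close together, and the 245 reads behind them compare with 19 in the Ly6C- group. The 4 Schwann cell markers used summed to 20.7, 35.3 and 39.4 in Ly6C+ libraries against 17.7, 17.9 and 9.18 in Ly6C- libraries, with 0 of 3 tested past the test. Those 3 were S100b, Ngfr and Mbp, with ratios of the Ly6C+ to the Ly6C- mean of 2.11, 3.12 and 2.14. Sox10 was at 0 in every Ly6C+ library and at 0 to 2.55 in Ly6C- libraries. The part of Schwann cell RNA in the Col28a1 difference was not tested.

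The promoters of Col28a1 and Col23a1 are shown as a called gene of each direction at a low level. Col28a1 lies on chromosome 6, 7997808 to 8192617, minus strand, and its bases are chr6:8192618-8192867. That of Col23a1 is chr11:51289670-51289919, before the gene at 51289920 to 51583918 on the plus strand of chromosome 11. Both are printed 5′ to 3′ on the strand of the gene, with CG in capitals.
Col28a1: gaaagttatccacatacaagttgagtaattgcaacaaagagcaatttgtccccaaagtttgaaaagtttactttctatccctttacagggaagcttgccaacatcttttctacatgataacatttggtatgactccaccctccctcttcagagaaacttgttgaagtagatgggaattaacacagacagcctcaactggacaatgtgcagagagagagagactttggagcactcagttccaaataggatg
Col23a1: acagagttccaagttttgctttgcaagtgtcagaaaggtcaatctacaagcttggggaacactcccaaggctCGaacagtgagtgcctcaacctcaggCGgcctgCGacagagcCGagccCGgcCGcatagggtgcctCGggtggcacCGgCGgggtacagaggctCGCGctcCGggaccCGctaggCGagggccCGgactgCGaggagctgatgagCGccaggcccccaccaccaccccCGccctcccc
Col28a1 holds 0 and Col23a1 18 CG dinucleotides, with a GC content of 40.4% and 66.0%.

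**Figure D2:**
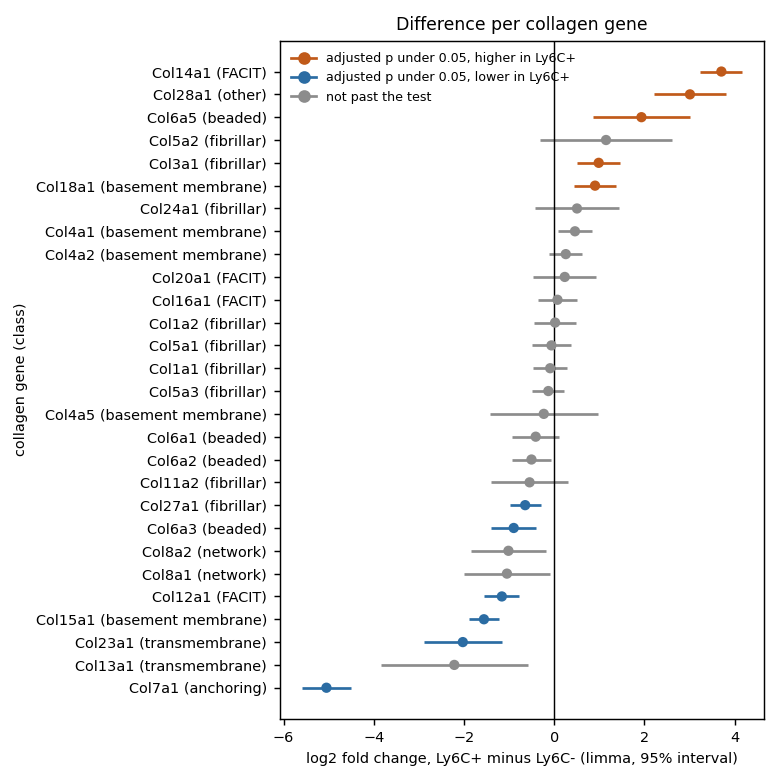
Log2 fold change (Ly6C+ minus Ly6C- pCAFs) of the 28 tested collagen genes with the 95% interval from limma. Orange points passed the test as higher, blue points as lower in Ly6C+ pCAFs, and grey points did not pass; the values run from -5.05 for Col7a1 to 3.71 for Col14a1.

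The 9 collagens with a mean under 5 were Col2a1, Col11a1, Col9a2, Col9a3, Col4a3, Col4a4, Col6a6, Col17a1 and Col26a1. None had a value above 9.18 in any library, and they rested on 1 to 11 reads in the Ly6C+ and 0 to 17 in the Ly6C- group. Col2a1, Col9a2, Col9a3 and Col11a1 are cartilage chains. Col4a4 had 7 reads in Ly6C+ and 1 in Ly6C- libraries, a ratio of 4.85 (95% counting interval 0.623 to 219). Col11a1 had 1 and 5 reads (ratio 0.139, interval 0.00293 to 1.24), and Col9a2 had 3 and 8 (ratio 0.260, interval 0.0444 to 1.08). All of these intervals include equal levels. Col6a6 had 6 reads in Ly6C+ and 0 in Ly6C- libraries, a ratio of 1.39 against a floor of 3 reads over the Ly6C- group. That ratio leaves out the counting error of the 6 reads, so it is not a lower limit and no difference is claimed. For Col2a1 (4 and 0 reads) and Col4a3 (1 and 0) no fold is given. Col9a3 and Col26a1, with 11 and 6 reads in Ly6C+ and 17 and 13 in Ly6C- libraries, had every Ly6C- value above every Ly6C+ value. The closest Col26a1 values, 1.55 in Ly6C+ replicate 3 and 1.70 in Ly6C- replicate 2, stood for 2 reads each and differed by the size factor alone. Col6a6 had every Ly6C+ value above the Ly6C- values, which were all 0. Ranges were also apart for 33.1% of all tested genes, so little can be read from these. Col9a3 shares its 3′ end with Tcfl5 on the other strand, and its reads are uncertain in origin.

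The make-up of the collagen reads differed between the groups. Col3a1 took 39.9, 41.2 and 39.2% of collagen reads in Ly6C+ and 22.5, 23.4 and 25.9% in Ly6C- libraries. It ranked first in Ly6C+ pCAFs, and in Ly6C- pCAFs Col1a2 did, with 36.0 ± 1.21% (31.0 ± 2.39% in Ly6C+, SD, n = 3). Col14a1 ranked 7th of the collagens in Ly6C+ and 18th in Ly6C- pCAFs, while Col7a1 ranked 22nd and 14th. The fibrillar class held 86.2 ± 0.50% of collagen reads in Ly6C+ and 79.1 ± 0.414% in Ly6C- pCAFs, and the FACIT class 3.35 ± 0.283% and 2.70 ± 0.218%. Beaded-filament chains held 6.70 ± 0.863% in Ly6C+ and 11.6 ± 0.564% in Ly6C- pCAFs, and basement membrane chains 3.41 ± 0.0803% and 4.83 ± 0.599%. The anchoring class, Col7a1 alone, held 0.0229 ± 0.00696% and 0.962 ± 0.357%. In all 8 classes the groups did not overlap, with an exact two-sided permutation p of 0.10 for each, also after Benjamini-Hochberg adjustment over the 8; this is the smallest p that 3 libraries against 3 allow. Shares of a whole depend on each other. Without Col3a1, the remaining collagens were 2.57, 2.73 and 2.93% of all other reads in Ly6C+ and 3.08, 3.27 and 3.72% in Ly6C- libraries (exact permutation p = 0.10). Without it the ranges were apart, and the Ly6C- mean was the higher. Leaving it out, an alternative added after the data were seen, the basement membrane and network shares overlapped between the groups (exact permutation p = 0.20 each), and the other classes kept their order.

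**Figure D3:**
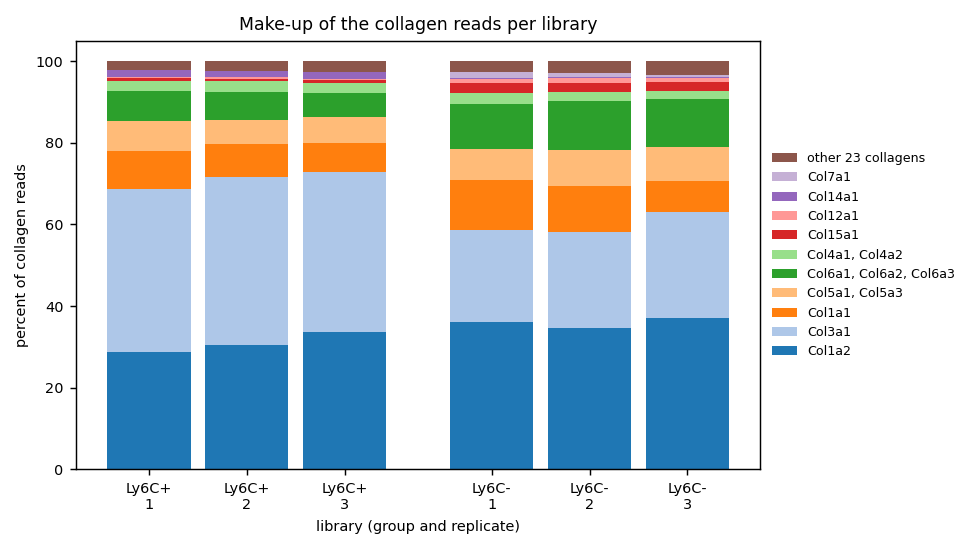
Percent of all collagen reads taken by each collagen or set of chains in each of the 3 Ly6C+ and 3 Ly6C- pCAF libraries, stacked to 100%. The Col3a1 segment is 39.2 to 41.2% in Ly6C+ and 22.5 to 25.9% in Ly6C- libraries, and the type VI, Col15a1 and Col7a1 segments are wider in Ly6C- libraries.

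Chains that assemble into one trimer were compared within each library, where the size factor cancels. Of 8 pairs considered, 7 had both chains at a mean of at least 5. Col1a1 to Col1a2 gave read ratios of 0.322, 0.264 and 0.216 in Ly6C+ libraries against 0.338, 0.330 and 0.208 in Ly6C- libraries, although the type I trimer holds more of the first chain, so ratios of reads are not ratios of protein. Col4a1 to Col4a2 gave 0.840, 0.856 and 0.90 against 0.967, 0.777 and 0.563. These 2 genes lie head to head on chromosome 8, and their annotated starts overlap by 22 bases in GENCODE M21. Col6a1 to Col6a2 gave 0.461, 0.358 and 0.316 against 0.335, 0.466 and 0.275, and Col6a3 to Col6a2 gave 0.295, 0.359 and 0.563 against 0.457, 0.530 and 0.560. Col5a3 to Col5a1 ran from 0.508 to 0.706 over all 6 libraries, Col5a1 to Col5a2 from 26.7 to 291 and Col8a1 to Col8a2 from 5.37 to 37.2. In all 7 pairs the groups overlapped, with exact two-sided permutation p from 0.30 to 1 (0.93 to 1 adjusted over the 7). The mean differences ran from -1.26 (Col5a1 to Col5a2) to 0.20 (Col4a1 to Col4a2) on the log2 scale, and at 3 libraries per group these tests cannot show that the ratios were the same.

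**Figure D4:**
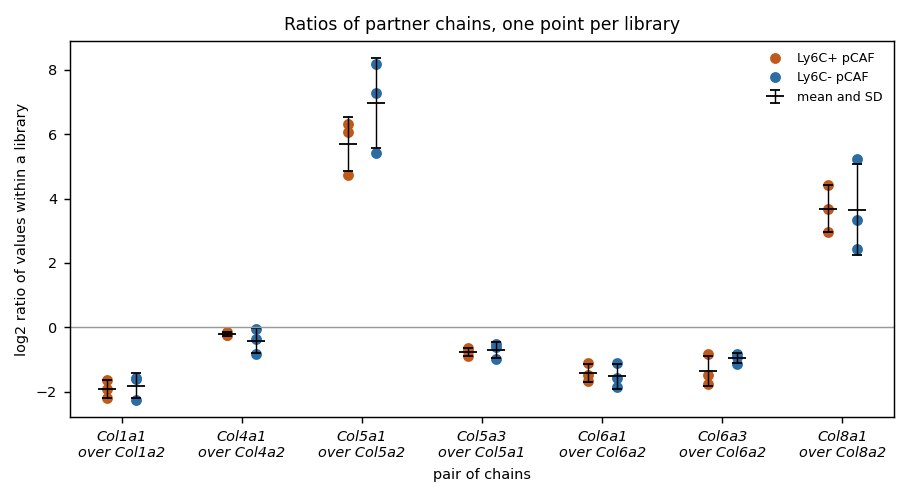
Log2 ratios of the values of 2 partner chains within a library, for 7 pairs, with points for 3 Ly6C+ and 3 Ly6C- pCAF libraries and bars for mean and SD. The groups overlap in every pair, and the Col5a1 to Col5a2 and Col8a1 to Col8a2 ratios scatter most.

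Promoter sequences of 250 bases were available in the RefSeq table for 29 of the 37 collagens, Col12a1 and Col14a1 not among them, and 5 short motifs were searched on both strands, each on its own and without regard to overlap with another. The median GC content was 60.8% for the collagens and 52.0% for all promoters. GGGCGG, the GC box of SP and KLF factors, was found in 18 of 29 collagen promoters (62.1%) and in 32.9% of all 27025. TATAAA was found in 4 (13.8%, against 13.0%) and CCAAT, the NF-Y box, in 10 (34.5%, against 34.5%). TGTGGT, the core that RUNX factors bind, was found in Col17a1 and Col8a1 (6.90%, against 14.2%), of which Col17a1 was not tested and Col8a1 did not pass. TGANTCA, the AP-1 site, was found in Col6a1 (3.45%, against 6.87%). Some of the windows, that of Col6a1 among them, overlap annotated exons of the same or another gene. A match there need not lie upstream of the transcript.

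The machinery that makes collagen was measured next to it. Of 20 tested genes of collagen modification and export, none was higher and 1 lower in Ly6C+ pCAFs, where 9.41% of all tested genes were higher and 7.66% lower, the shares against which the counts of the lists below are to be read. The list had a median log2 fold change of -0.01. The means of Serpinh1, the collagen chaperone HSP47, were 6065 ± 939 for Ly6C+ and 6133 ± 682 for Ly6C- pCAFs (SD, n = 3). The gene that passed was P3h1, a prolyl 3-hydroxylase, 1.45-fold higher in Ly6C- pCAFs (limma adjusted p = 0.0396), and it kept its call without Ly6C- replicate 1 but lost it without any of the other 5 libraries (limma adjusted p = 0.0679 to 0.181). Procollagen-processing genes were higher for 3 of 5 tested. Adamts2, which removes the amino-terminal propeptide, was 2.38-fold higher in Ly6C+ pCAFs, at 386 ± 84.6 against 162 ± 20.5 (SD, n = 3). The enhancers of the carboxy-terminal protease, Pcolce2 and Pcolce, were 3.58-fold and 1.67-fold higher. Pcolce lost its call without Ly6C+ replicates 1 or 2 (limma adjusted p = 0.0537 and 0.0559). Bmp1, that protease, did not pass (named, like Serpinh1, after its value was seen; 2740 ± 567 against 2281 ± 897).

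Among crosslinking enzymes 2 of 6 were higher, 1 lower and 3 not past the test. Loxl3 was 2.56-fold higher in Ly6C- pCAFs and Loxl4 2.28-fold higher in Ly6C+ pCAFs. Lox, the founding lysyl oxidase, was 1.79-fold higher in Ly6C+ pCAFs (limma adjusted p = 0.0441), a call that held in 1 of the 6 fits with a library left out, that without Ly6C- replicate 3, and ended in the other 5 (limma adjusted p = 0.0829 to 0.162). Without Ly6C+ replicate 3 Loxl4 did not pass (limma adjusted p = 0.0574). Among 8 tested collagen receptors, 3 were higher and 2 lower. Ddr2, a receptor kinase for fibrillar collagen, was 4.16-fold and Itga11, the integrin chain for type I collagen, 2.90-fold higher in Ly6C+ pCAFs. Antxr2, a receptor for type VI collagen, was 2.43-fold higher (limma adjusted p = 0.0226, and 0.0547 to 0.0694 without Ly6C+ replicate 1 or Ly6C- replicates 2 or 3). Itgb1, the common partner chain of collagen integrins, was 2.61-fold higher in Ly6C- pCAFs, as was the low-level Itga10 (3.70-fold; limma adjusted p = 0.0190, and 0.0505 to 0.0693 without Ly6C+ replicates 1 or 2 or Ly6C- replicates 1 or 2).

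Collagen-degrading proteases were lower in Ly6C+ pCAFs for 3 of 6 tested, where 7.66% of all genes were lower, and 3 did not pass. Mmp13, an interstitial collagenase, stood at 1.22, 2.26 and 0.773 in Ly6C+ libraries against 126, 121 and 510 in Ly6C- libraries, a 178-fold difference on 6 Ly6C+ reads that was 87.1-fold without Ly6C- replicate 3. Mmp9 was 12.8-fold and Mmp14, a membrane-bound collagenase, 1.89-fold higher in Ly6C- pCAFs. Mmp2, the most abundant of the list, had a mean of 4621 ± 1741 in Ly6C+ and 2438 ± 966 in Ly6C- pCAFs (SD, n = 3) and did not pass (limma adjusted p = 0.101), but passed as higher in Ly6C+ pCAFs without Ly6C+ replicate 3 or Ly6C- replicate 1 (limma adjusted p = 0.0323 and 0.0404). Ctsk did so without Ly6C- replicate 3 (limma adjusted p = 0.0478, against 0.143 with all 6 libraries). Both were named after their values were seen. Of 12 tested partners of the fibril surface, 6 were higher, 2 lower and 4 did not pass, with a median log2 fold change of 1.18. Decorin (Dcn) and lumican (Lum) stand in the fibroblast marker list too. Dpt (17.2-fold), Tnxb (57.2-fold), Dcn (3.99-fold) and Ogn (23.9-fold), which bind or space collagen fibrils, were higher in Ly6C+ pCAFs, as Col14a1 was. The fold of Ogn was 14.1 without Ly6C+ replicate 1. Lum and Comp, below the 4 smallest p, were the other two. Lum was 5.24-fold higher, or 13.0-fold without Ly6C- replicate 3, and lost its call without Ly6C+ replicate 1 (limma adjusted p = 0.0645). Comp was 9.72-fold higher. That value became 5.02 when Ly6C+ replicate 2 was left out and 16.5 when Ly6C- replicate 1 was. Its call ended without Ly6C+ replicates 2 or 3 or Ly6C- replicates 2 or 3 (limma adjusted p = 0.165, 0.0938, 0.0581 and 0.0577). The 2 that were lower in Ly6C+ pCAFs were Thbs1 (2.14-fold) and Fmod (2.61-fold), and Fmod lost its call without Ly6C+ replicate 1 or Ly6C- replicate 2 (limma adjusted p = 0.0564 each).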

How the data were processed

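Gene expression was measured in 6 libraries, 3 Ly6C+ and 3 Ly6C- pCAF. HTSeq, STAR 2.4.2a, bcl2fastq and the mm10 build are listed, per the submitters' processing notes. The deposited table holds signal values, gene counts that the authors divided by 1 size factor per library; the size-factor tool, annotation, strand setting and gene filters are not given in the sources used here. All values (100%) were whole multiples of 1 step per library within 0.001, so whole reads were recovered. Groups were tested with limma 3.58.1 under R 4.3.3 on log2(value + 1) with a mean-variance trend over 9646 genes with a mean of at least 5, Benjamini-Hochberg adjusted; its fold changes understate those of low genes. On recovered reads, edgeR 4.0.16 with TMM scaling called 1721 and DESeq2 1.42.0 1549 genes. Shares and ratios were compared by exact permutation. Intervals on reads cover counting error only, and the floor covers only that of the group without reads. Annotation came from GENCODE M21 and promoters from RefSeq (GRCm38.p6).

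The members, classes, other lists, motifs and tests were chosen with earlier results of these data known. Values in every library are given for each collagen past the test, the highest of each class and both chains of each pair. Up to 4 called members of each other list, those with the smallest p, are named, and members outside this rule were named after their values were seen. One marker gene is not reported here. The alternatives were other pseudocounts, filters, scalings, priors and thresholds, the replicate number as a block, edgeR, DESeq2 and each library left out; thinning to 1176909 reads and leaving out Col3a1 were chosen after seeing the data. Scripts were checked on simulated data. Exact tests used scipy 1.17.1, and figures matplotlib 3.10.9, under Python 3.11.15.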

Additional observations from a re-analysis of the deposited data

How the results depend on the processing

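The 11 collagen calls held in all settings of pseudocount, low-value filter, robust prior, quantile, median-of-ratios or total scaling, edgeR, DESeq2 and thinning. Without the mean-variance trend, or at a threshold of 0.01, 7 collagens passed, 3 of them higher; the 4 lost in each were Col18a1, Col27a1, Col6a3 and Col6a5. With 1 library left out, 9 to 13 collagens passed, 3 to 6 higher and 4 to 7 lower. Over all genes, 959 passed at 0.01 (558 higher, 401 lower), 1211 were lower under total scaling, and 469 to 741 were lower with 1 library left out, the lowest being without Ly6C- replicate 2. With the replicate number as a block, 14 collagens passed in limma and 14 in edgeR, adding Col13a1, Col8a1 and Col8a2, and 2088 genes in limma; every library had its highest correlation of deviations with its own number (0.13, 0.05 and 0.17), a hint from the data and not the design, and the numbers were not taken as pairs. The collagen share of reads differed by 0.118 percentage points, by -0.617 without Col3a1 and by -0.0978 to 0.41 with 1 library left out. With all 6 libraries, the log2 ratio differences of Col5a1 to Col5a2 and Col6a3 to Col6a2 were -1.26 and -0.39. Their ranges with 1 library left out are not given here. With 1 library left out the log2 ratio differences ran from -0.34 to 0.034 for Col1a1 to Col1a2, -0.0033 to 0.39 for Col4a1 to Col4a2, -0.21 to 0.028 for Col5a3 to Col5a1, -0.081 to 0.30 for Col6a1 to Col6a2 and -0.59 to 0.80 for Col8a1 to Col8a2, and the last was -0.033 with a pseudocount of 1 in both chains. The cause was not tested. Low depth limits the 9 collagens with a mean under 5, and 3 libraries per group limit the exact tests to p = 0.10.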
